A study of Homo sapiens with 4 samples.

Results

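The genes described here are 10 that cells are known to switch on when oxygen is short: ADM, ANKRD37, CA9, VEGFA, BNIP3, BNIP3L, PFKFB3, PFKFB4, NDRG1 and EGLN3. Their probe sets were found by the gene symbol that the annotation of the array gives, and 17 of the 54613 probe sets other than controls carried 1 of these symbols alone. They stand for 9 of the 10 genes, among 19775 genes named on the array, since no probe set was named CA9 in the annotation used here. After the low-signal filter 13 of the 17 probe sets remained, for 8 genes. The remaining gene, BNIP3, had only dim probe sets. The filter used the mean over all arrays and no difference between them.

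RCM-1 cells, a human line from a well-differentiated colorectal cancer, were grown to near confluency and given methylthioacetic acid (MTA), a small sulphur compound studied for its part in dome formation, in which patches of the cell layer lift off the dish. Messenger RNA was measured on 4 Affymetrix arrays, 1 for each of 0, 6, 12 and 18 h of MTA at 1 mM. The cells were then moved to medium with the solvent, 0.1% acetonitrile, up to 24 h after the start, so that the 6, 12 and 18 h cells had spent 18, 12 and 6 h without MTA when they were collected. The 0 h array is labelled as the control, which had 0.1% acetonitrile and no MTA. Its time of harvest could not be settled from the labels, so its time in culture may differ from that of the others. The labels name no low-oxygen culture for any array. All 4 arrays come from the same cell line, with 1 array per time, so there are no tests and no p-values, and the precision of each value is limited by having a single array.

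Cells sense oxygen through prolyl hydroxylases, which mark the alpha subunit of the hypoxia-inducible factor (HIF) for destruction by the VHL ubiquitin ligase. When oxygen is short the alpha subunit escapes, pairs with ARNT and binds a short motif near its targets, whose products bring in blood vessels, shift energy supply to glycolysis, buffer acid and remove mitochondria. Several of these targets also answer to other signals, such as stress or nutrient supply, so their messenger RNA alone does not report oxygen. In the gut, surface epithelial cells normally live next to an almost oxygen-free lumen and express many of these genes.

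The core of the HIF binding motif is ACGTG or GCGTG. The 250 bases before the transcription start are shown for ANKRD37 and PFKFB4, whose signals were highest relative to 0 h, and for ADM, whose signal was lowest relative to 0 h at 18 h. They are taken from RefSeq (GRCh38.p14), run 5′ to 3′ on the strand of the gene, and have every ACGTG or GCGTG on either strand in capitals. ANKRD37 lies on the plus strand at chr4:185396591-185396840, PFKFB4 on the minus strand at chr3:48556804-48557053 and ADM on the plus strand at chr11:10304823-10305072.
ANKRD37: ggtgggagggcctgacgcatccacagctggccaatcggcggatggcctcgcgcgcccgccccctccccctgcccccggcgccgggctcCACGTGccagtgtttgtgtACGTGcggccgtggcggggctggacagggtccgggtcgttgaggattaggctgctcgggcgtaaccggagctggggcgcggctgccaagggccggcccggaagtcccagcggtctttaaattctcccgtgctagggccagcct
PFKFB4: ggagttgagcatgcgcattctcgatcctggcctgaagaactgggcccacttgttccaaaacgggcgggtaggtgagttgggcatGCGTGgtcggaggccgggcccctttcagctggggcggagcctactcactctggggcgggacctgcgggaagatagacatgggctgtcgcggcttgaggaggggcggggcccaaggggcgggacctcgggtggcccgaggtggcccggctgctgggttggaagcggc
ADM: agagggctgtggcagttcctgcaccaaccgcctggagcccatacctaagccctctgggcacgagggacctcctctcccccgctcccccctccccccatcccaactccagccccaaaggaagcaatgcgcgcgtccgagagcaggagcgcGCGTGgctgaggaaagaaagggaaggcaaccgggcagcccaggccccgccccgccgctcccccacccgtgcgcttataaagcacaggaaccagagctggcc
ANKRD37 had 3 matches, all ACGTG. The 2 on opposite strands, at −162 to −157 from the start, overlap in the palindrome CACGTG, which is also an E-box, the motif of MYC and related factors, and the third lies at −143 to −139. PFKFB4 had 1 match, a GCGTG on the gene's own strand at −166 to −162, and ADM had 1 GCGTG at −101 to −97. Positions count back from the start, whose preceding base is −1. Of all 35116 promoters in the table, 43.2% held at least 1 match in the same window and 7.76% at least 3. Promoters of 7 of the 10 genes were examined, with 2 for PFKFB3. Those of VEGFA, NDRG1 and BNIP3L were not examined, so nothing is said of matches in them. BNIP3 had 6 matches, the PFKFB3 promoters 1 and 2, CA9 1 and EGLN3 none. At least 5 matches were found in 1.36% of all promoters. The 2 matches of the second PFKFB3 promoter overlap on opposite strands, as in ANKRD37, and so do 2 of the 6 in BNIP3. A match is a description of the letters and not of binding, and the windows leave out more distant sites.

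Across the whole series the signals were not level between arrays. With the scaling as deposited, 10505 genes had a kept probe set, and the medians of their log2 ratios after 6, 12 and 18 h were 0.11, −0.28 and −0.47. The distance of a gene from that median is therefore also given, which no division of a whole array by 1 number can alter. A ratio between that median and 0 turns sign under at least 1 of the other scalings tried, for any gene named here. Added poly-A control transcripts ranged from −0.25 to 0.20 in mean log2 ratio and hybridization controls from −0.27 to 0.02. The 3′ to 5′ signal ratio of GAPDH, a sign of RNA integrity, lay between 1.44 and 1.64 on the 4 arrays, and that of ACTB between 4.76 at 6 h and 6.45 at 18 h. The part of RNA integrity in the ratios was not tested. Of 12 colorectal epithelial markers all 12 were kept, with summed signals from 44120 to 63356. Among them CEACAM5, an adhesion protein of colon epithelium, had a log2 ratio of −1.70 at 18 h, the intestinal transcription factors CDX1 and CDX2 had −0.97 and 0.33, and the keratin KRT19 had −0.79. No fibroblast marker of 5 and no leukocyte marker of the 3 named on the array was kept, and of 3 endothelial markers only PECAM1 was, with a mean signal of 37.1 against the lowest kept mean of 34.0.

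The PFKFB enzymes make and break fructose 2,6-bisphosphate, the strongest known activator of glycolysis, and PFKFB3 and PFKFB4 are the family members induced by hypoxia. The PFKFB4 signal was 126 at 0 h and 346, 418 and 324 after 6, 12 and 18 h. All 3 MTA arrays lay above the 0 h array, and the 12 h array was the highest. The log2 ratios to 0 h were 1.45, 1.73 and 1.36, or 3.31-fold at 12 h and 2.56-fold at 18 h. Only 0.762% of all genes had a higher ratio at 12 h. In bulk RNA a higher signal from each cell and a larger share of cells with the transcript cannot be told apart. A second PFKFB4 probe set was too dim to be kept, at 2.20 on the 0 h array and from 7.32 to 10.1 on the others.

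PFKFB3, on its 1 probe set, had signals of 354, 382, 377 and 324 at 0, 6, 12 and 18 h. No array stood apart, and the log2 ratios were 0.11, 0.09 and −0.13, the last of which turns positive under 4 of the 9 other settings. The log2 ratio of PFKFB4 exceeded that of PFKFB3 by 1.34, 1.63 and 1.49 after 6, 12 and 18 h, a difference that division of an array by 1 number cannot move.

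ANKRD37, a small ankyrin-repeat protein of the nucleus that is a sensitive HIF target, had a signal of 562 at 0 h and of 1118, 1516 and 1088 after 6, 12 and 18 h. The 12 h array was again the highest, and the 6 and 18 h arrays were alike. Its log2 ratios were 0.99, 1.43 and 0.95, and 1.37% of all genes had a higher ratio at 12 h. Its other probe set gave signals of at most 4.52 and carries no usable level.

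NDRG1, a stress-induced protein linked to epithelial differentiation and to restraint of metastasis, had a signal of 1001 at 0 h and of 1690, 2579 and 1826 after 6, 12 and 18 h. Every MTA array exceeded the 0 h array, with log2 ratios of 0.76, 1.37 and 0.87, and 1.61% of all genes had a higher ratio at 12 h. Among its relatives NDRG3 had 0.71, 0.62 and 0.28, but −0.05, 0.04 and −0.62 on its dimmer probe set. NDRG4 had 1.74, 1.84 and 1.70, but that ratio rests on a dim 0 h reading of 23.1, below the filter's lower limit of 34.0.

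**Figure D1:**
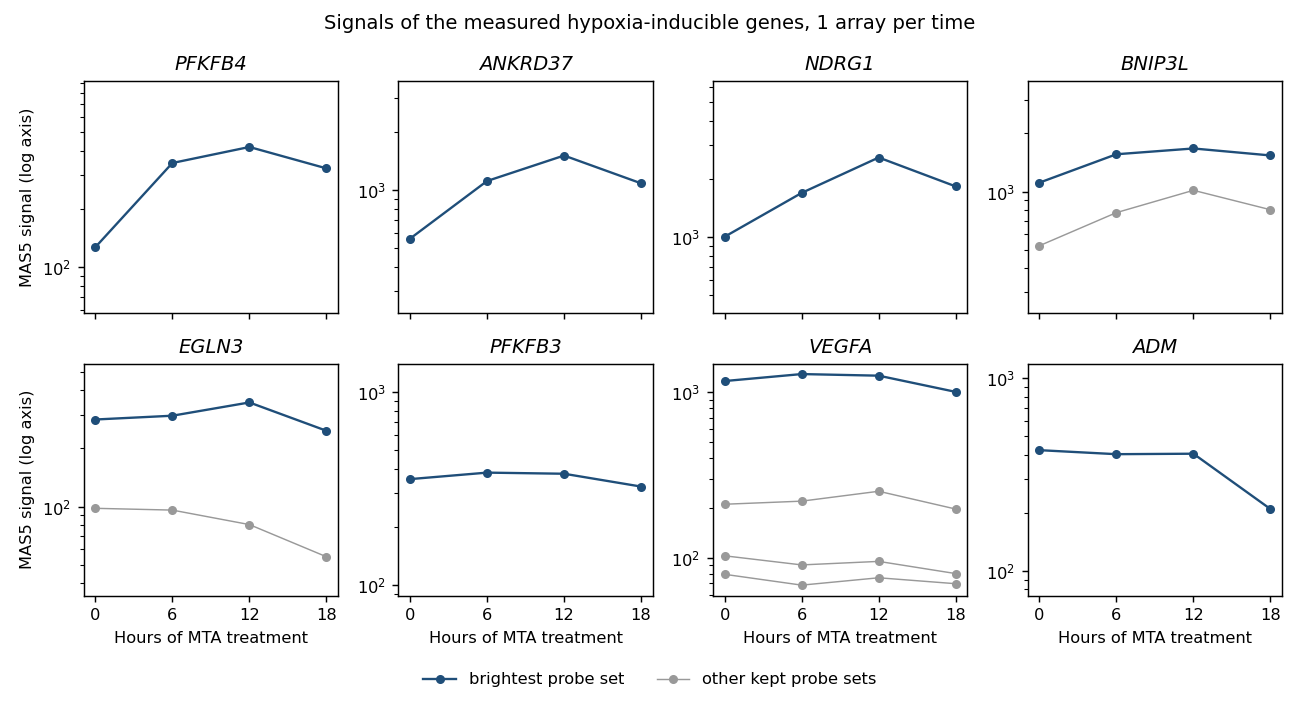
MAS5 signals (log axis, each panel with its own range) against hours of MTA treatment for the 8 measured hypoxia-inducible genes, with 1 point per array, the brightest probe set of each gene in blue and its other kept probe sets in grey. PFKFB4, ANKRD37, NDRG1 and both BNIP3L probe sets are highest on the 12 h array, and ADM is level up to 12 h and lower at 18 h.

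BNIP3 and BNIP3L (also called NIX) sit on the outer mitochondrial membrane and recruit the autophagy machinery to mitochondria. BNIP3L had 2 kept probe sets with the same course. The brighter had signals of 1111, 1560, 1672 and 1538 at 0, 6, 12 and 18 h and log2 ratios of 0.49, 0.59 and 0.47, and the other had signals of 523, 777, 1014 and 804 and log2 ratios of 0.57, 0.96 and 0.62. On both the 0 h array was the lowest. At 12 h 7.91% of all genes had a higher ratio than the brighter probe set, so BNIP3L stood less far out than PFKFB4, ANKRD37 and NDRG1.

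BNIP3 itself was near the bottom of the scale on every array, with signals of 5.19, 7.80, 10.97 and 6.96 on the brighter of its 2 probe sets. The other ranged from 0.291 to 5.87. No ratio is drawn from such readings, except in the setting with no filter, which counts BNIP3 as a member. A low signal can come from the probes as well as from the transcript.

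Of 9 measured partners of BNIP3L and BNIP3 in mitophagy, none was beyond 1 at 12 h in either direction, against 3.28% of all genes above 1 and 6.29% below −1. Their median log2 ratio was −0.16 at 12 h and −0.23 at 18 h. GABARAPL1, an autophagosome protein, had 1.22 at 18 h from a dim 29.7 at 0 h, GABARAPL2 had 0.20 and MAP1LC3B −0.09, while SQSTM1, a cargo receptor, had −0.92 on its brightest probe set and from −0.67 to 0.77 on 3 much dimmer ones. BNIP2, named like BNIP3 for binding an adenoviral protein, had 0.78 at 12 h and 0.51 at 18 h, and 0.09 and 0.28 on its second probe set.

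VEGFA, the main growth factor of blood vessels, is the most widely used hypoxia marker, and its 4 kept probe sets gave little difference between arrays. The brightest had signals of 1167, 1286, 1258 and 1004 at 0, 6, 12 and 18 h. Over the 4 probe sets the log2 ratio ran from −0.22 to 0.14 at 6 h, from −0.11 to 0.26 at 12 h and from −0.36 to −0.10 at 18 h. Under 4 of the 9 other settings the ratio of the brightest at 18 h is positive, up to 0.37. VEGFB, a relative, had −0.26, 0.16 and −0.35.

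ADM encodes adrenomedullin, a secreted peptide that widens blood vessels. Its signal was 422 at 0 h, stayed at 402 and 404 after 6 and 12 h and was 209 after 18 h. The first 3 arrays were alike and the 18 h array stood alone, with a log2 ratio to 0 h of −1.01, or 0.495 times the signal. The ratio of the 18 h to the 12 h array, −0.95, lay 0.76 below the median of all genes for that step. ADM had the lowest ratio of the 8 genes at 18 h and was the only member below the median of all genes there. Its ratio stayed negative in all 10 settings, from −1.01 to −0.48, though a change of filter or a mean over probe sets cannot alter it.

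Of 8 listed genes for receptors of VEGFA and adrenomedullin and for partners of such receptors, 4 were measured. NRP2, a co-receptor for VEGF, had signals of 81.6, 37.1, 32.1 and 31.3 and a log2 ratio of −1.38 at 18 h, and its other kept probe set had −1.90. At 12 and 18 h both lay below the filter's limit of 34.0, so the sizes of these ratios rest on dim readings. NRP1 had −0.75 on its brighter probe set but 0.44 on its dimmer one, RAMP1, which helps form the CGRP receptor, −0.54, and FLT1 0.10 after 1.11 at 6 h. KDR, the main VEGF receptor of endothelium, and CALCRL, the adrenomedullin receptor, had no kept probe set.

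EGLN3 is a prolyl hydroxylase that HIF itself induces, which closes a feedback loop. Its brightest probe set had signals of 283, 296, 347 and 247 and log2 ratios of 0.07, 0.29 and −0.19, and its dimmer probe set had signals of 97.9, 95.9, 80.6 and 54.9 and log2 ratios of −0.03, −0.28 and −0.83. The probe sets differed in sign at 12 h, and the brighter turns positive at 18 h under 4 of the 9 other settings, so no direction is given for EGLN3.

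Upstream of these targets, HIF1A, the alpha subunit that acts in most cells, had signals of 2597, 3038, 2211 and 1733, with a log2 ratio of −0.58 at 18 h, 0.12 below the median of all genes. HIF1A is controlled mainly by destruction of its protein, which these arrays do not measure. EPAS1, the alpha subunit HIF-2 alpha, had 0.72 at 6 h and 0.06 at 18 h, and ARNT, the shared partner, had 0.83 and 0.42, but −0.17 on its other probe set at 18 h. CITED2, a brake on HIF, had 0.77, 0.51 and 0.23, with −0.01 on its dimmer probe set at 18 h, and EP300, a coactivator, −0.35 at 18 h. None of the 6 measured genes of this group was beyond 1 at any time, against shares of all genes of at most 15.8%, for those below −1 at 18 h.

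Of 9 measured genes of oxygen sensing and HIF turnover, 1 was below −1 at 18 h, against 15.8% of all genes, and none above 1, against 3.15%, so the group's count is near that of all genes. It was RBX1, the RING subunit of the VHL ligase, at −1.04. VHL, which recognises hydroxylated HIF, had −0.94, SIAH2, which degrades the prolyl hydroxylases, −0.89, and ELOB, an elongin of the VHL complex, −0.05, with −0.72 on its dimmer probe set. Their median was −0.64, 0.17 below that of all genes. CUL2, the scaffold of that complex, had −0.43 on its brighter probe set and −1.84 on its dimmer one, whose 18 h signal of 17.8 lay below the filter's limit.

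**Figure D2:**
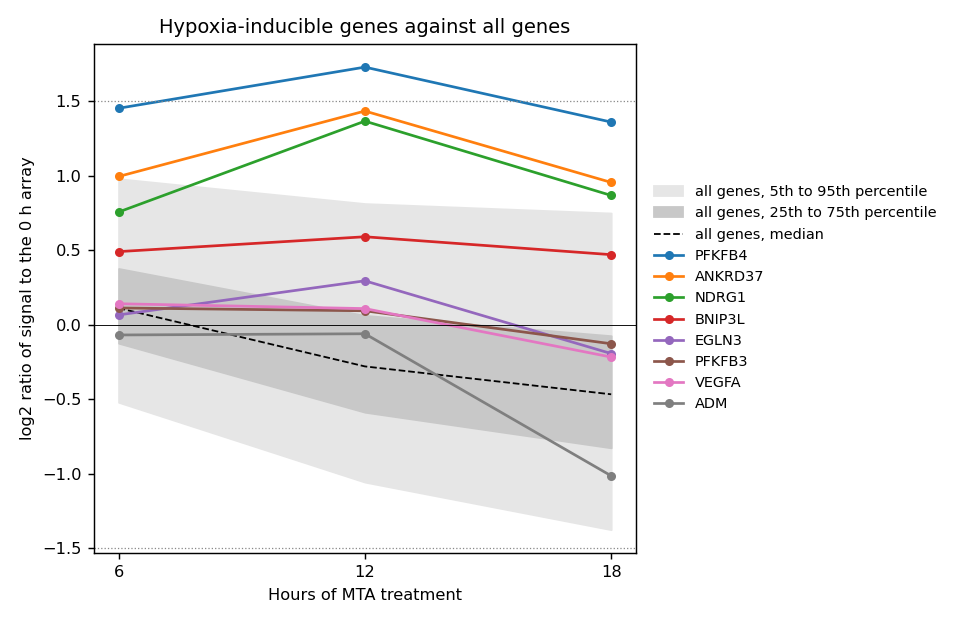
Log2 ratio of signal to the 0 h array at 6, 12 and 18 h of MTA for the brightest probe set of each measured hypoxia-inducible gene (coloured lines), over the spread of all 10505 genes (grey bands and dashed median), with dotted lines at the threshold of 1.5. PFKFB4, ANKRD37 and NDRG1 lie above the 95th percentile of all genes at 12 and 18 h, and ADM moves from above to below the median of all genes between 12 and 18 h.

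Counted together, 1 of the 8 measured genes, PFKFB4, was beyond the threshold of 1.5 (2.83-fold) at 12 h, against 1.18% of all genes higher and 0.942% lower. At 6 h no member was beyond 1.5, compared with 1.43% of all genes higher and 0.019% lower. At 18 h again no member was beyond it, against 1.22% higher and 3.19% lower. Some scalings gave higher counts at 12 and 18 h. After median centring PFKFB4, ANKRD37 and NDRG1 were above 1.5 at 12 h, where 2.14% of all genes were, and PFKFB4 at 18 h, where 2.85% were. At 18 h quantile normalization put 2 members above 1.5, against 2.22%, and the poly-A controls 1, against 1.97%. At the looser threshold of 1, PFKFB4, ANKRD37 and NDRG1 were higher at 12 h, that is 3 of 8 against 3.28% of all genes, and none was lower, against 6.29%. At 18 h PFKFB4 was above 1, against 3.15%, and ADM below −1, against 15.8%. At 6 h PFKFB4 was the only member above 1, against 4.68%, and none was below −1, against 0.476%.

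The log2 ratios of the 8 genes after 6, 12 and 18 h had medians of 0.31, 0.44 and 0.17, which is 0.20, 0.72 and 0.64 above the median of all genes. At 12 h all 8 lay above that median, at 18 h all but ADM, and at 6 h all but ADM and EGLN3. After 6, 12 and 18 h, ratios were above 0 for 7, 7 and 4 of the 8, against 62.3%, 28.4% and 21.7% of all genes. The genes were split among themselves. PFKFB4, ANKRD37, NDRG1 and BNIP3L had ratios above 0 at every time in all 10 settings, though a change of filter leaves these ratios as they were. VEGFA, PFKFB3 and EGLN3 had ratios near 0 whose sign at 6 and 18 h depends on the scaling. At 12 h they were above 0 in all 10 settings. With the deposited scaling 22.6%, 23.3% and 15.3% of all genes had a higher ratio there, though dimmer probe sets of VEGFA and EGLN3 were below 0.

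A course with its top at 12 h was noticed after the values had been seen. With the deposited scaling 5 of the 8 genes, PFKFB4, ANKRD37, NDRG1, BNIP3L and EGLN3, had their highest signal on the 12 h array, against 6.38% of all genes. A further 2 were highest at 6 h, like 53.1% of all genes, ADM at 0 h, like 36%, and none at 18 h, against 4.45%. These counts use the brightest probe set of each gene, and the dimmer EGLN3 probe set was highest at 0 h. After median centring the numbers for the 12 h array were 7 of 8 and 21.3%, and after quantile normalization 6 and 21.4%. Relative to the poly-A controls they were 5 and 6.01%. In each of these scalings BNIP3L was highest at 18 h, so the genes counted were not the same as with the deposited scaling. All 8 genes had a lower signal at 18 h than at 12 h with the deposited scaling, as had 76.3% of all genes. After median centring 7 of 8 were lower, against 54.3%, after quantile normalization 6, against 51.2%, and relative to the poly-A controls 6, against 36.8%. Because a longer treatment went with a shorter time in MTA-free medium, duration and time since removal cannot be told apart in this course. The 3 ratios of a gene share its 0 h array.

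With no replicate arrays, the only error at hand is how far the log2 ratios of a gene's 2 brightest probe sets lie apart. Over 4676 genes the SD of this distance was 0.408, 0.421 and 0.479 after 6, 12 and 18 h, and over the 1776 genes with both at a mean signal of at least 200 it was 0.255, 0.269 and 0.310. The ratios of PFKFB4, ANKRD37 and NDRG1 exceeded these SDs at every time, as did that of ADM at 18 h. Those of VEGFA and PFKFB3 lay within them at every time. For ADM, VEGFA and PFKFB3 this holds with the deposited scaling only. After median centring VEGFA and PFKFB3 had 0.39 and 0.37 at 12 h, beyond the SD of 0.269. After quantile normalization ADM had −0.477 at 18 h, within the SD of 0.479 but beyond that of 0.310. Variation from culture to culture was not measured.

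Beyond these genes, 66 other known hypoxia targets were listed, and 54 of them had a kept probe set. The list, like the members, was chosen with earlier results of these data known. Their medians after 6, 12 and 18 h were 0.26, 0.13 and −0.20, or 0.15, 0.41 and 0.27 above the median of all genes. At 12 h 41 of the 54 lay above that median and at 18 h 36. At 12 h 7 were above 1, against 3.28% of all genes, and 1 was below −1, against 6.29%. At 18 h 6 were above 1, against 3.15%, and 5 below −1, against 15.8%. With the deposited scaling the list was thus spread to both sides of 0 at 18 h, as the members were. The place of 0 depends on the scaling, and after median centring ADM alone of the members was below 0 at 18 h.

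Glucose transporters and glycolytic enzymes, 22 measured genes, held the widest range, from −1.80 to 1.33 at 18 h. SLC2A3, the high-affinity glucose transporter GLUT3, had signals of 995, 1979, 2755 and 2493, with a log2 ratio of 1.33 at 18 h, and 1.53 and 1.23 on its other kept probe sets. SLC2A1, the transporter GLUT1 and a standard hypoxia target, went the other way, with signals of 3833, 2793, 2548 and 1780 and a ratio of −1.11, and −0.98 on its second probe set. HK2, which traps glucose in the cell, had signals of 1030, 383, 560 and 296 and the lowest ratio, −1.80. On their brightest probe sets the abundant enzymes LDHA, PGK1 and GAPDH lay between −0.21 and −0.17 at 18 h, with signs that depend on the scaling. Dimmer probe sets of PGK1 ran from −0.56 to 0.11.

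The same split appeared between near relatives, a comparison chosen after the values had been seen. ENO2, the neuronal enolase, had log2 ratios of 1.62, 1.60 and 1.28, from 87.2 at 0 h to 211 at 18 h, and ENO1, the common enolase, had 0.19, −0.26 and −0.48. ALDOC, the brain aldolase, had 0.91, 1.43 and 1.06 and ALDOA, the muscle form found in most cells, 0.45, 0.25 and 0.01. At 18 h SLC2A3 exceeded SLC2A1 by 2.43 on the log2 scale, ENO2 exceeded ENO1 by 1.75, ALDOC exceeded ALDOA by 1.05 and PFKFB4 exceeded PFKFB3 by 1.49. Probes of such relatives can take up each other's transcripts, which was not tested.

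**Figure D3:**
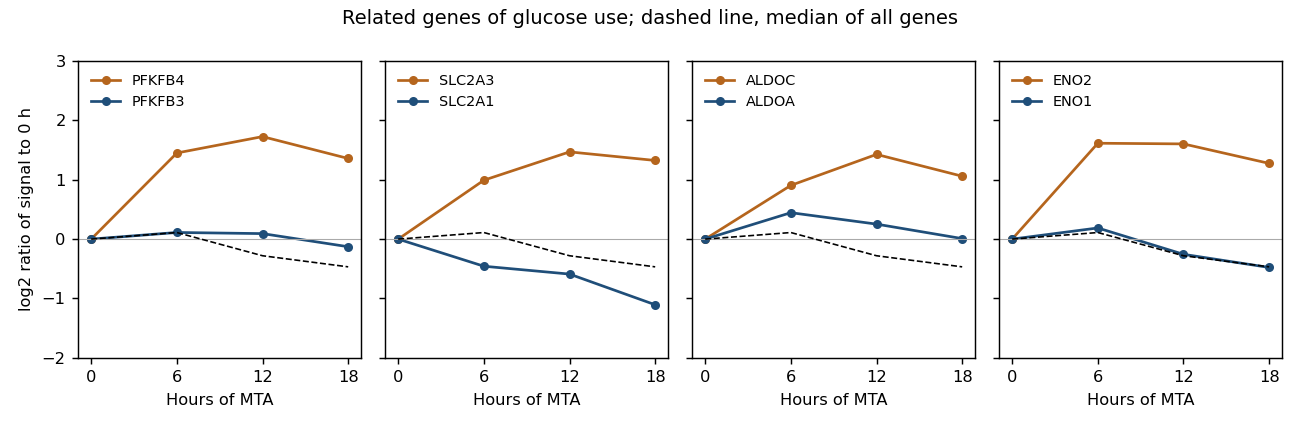
Log2 ratio of signal to 0 h against hours of MTA for 4 pairs of related genes of glucose use, with the median of all genes dashed. PFKFB4, SLC2A3, ALDOC and ENO2 (brown) lie above their relatives PFKFB3, SLC2A1, ALDOA and ENO1 (blue) on all 3 MTA arrays, by 1.05 to 2.43 at 18 h.

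Among 20 measured transcription and stress regulators and other targets the medians after 12 and 18 h were 0.48 and 0.14, 0.76 and 0.60 above that of all genes. TMEM45A, a membrane protein, had 1.70 and 1.54, though from a dim 31.1 at 0 h. CCNG2, a cyclin that holds back division, had signals of 386, 776, 958 and 866 and a ratio of 1.17 at 18 h, and 1.03 on its next brightest probe set. The further 2, at 2.05 and 2.27, had 0 h signals of 27.2 and 17.9, below the filter's limit. SPAG4 had 1.02 at 18 h, though from a dim 35.6 at 0 h, near the filter's limit. BHLHE41, a repressor that HIF induces, had 1.42 at 12 h and 0.91 at 18 h, from a signal of 40.8. AK4 and ERO1A, also members of this group, had −1.02 and −1.01 at 18 h on their brightest probe sets. The other kept probe sets of AK4 had −1.66, −1.39 and −1.12, and those of ERO1A −0.94 and −0.78.

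Collagen-modifying enzymes were represented by 4 genes. PLOD2, a lysyl hydroxylase, had 1.07 at 12 h and 0.73 at 18 h, and 1.17 and 0.79 on its second probe set. P4HA1, P4HA2 and PLOD1 had −0.08, −0.31 and −0.42 at 18 h, signs that turn under other scalings, and the dimmer probe set of P4HA2 had −0.94. Of 4 secreted factors, PGF, a VEGF relative, had 0.44 at 18 h after 1.06 at 6 h, TGFA 0.22, STC2 −0.38 and EDN1, the vessel-narrowing peptide endothelin, −0.89.

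Targets of acid and iron handling had the lowest median, −0.81 at 12 h and −0.70 at 18 h over 4 genes. TFRC, the transferrin receptor, had signals of 4164, 3988, 1978 and 2284 and a log2 ratio of −1.07 at 12 h, and −1.33 on its second probe set. HMOX1, heme oxygenase, had −0.91 at 18 h, SLC11A2, an iron importer, −0.53 on its brightest probe set but −0.09 and 0.68 on dimmer ones, and CA12, a carbonic anhydrase of the cell surface like CA9, −0.02 after 0.73 at 6 h, with −0.09 to 0.22 at 18 h on its other probe sets. The intracellular relative CA2 had 1.07 at 6 h and −1.26 at 18 h.

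**Figure D4:**
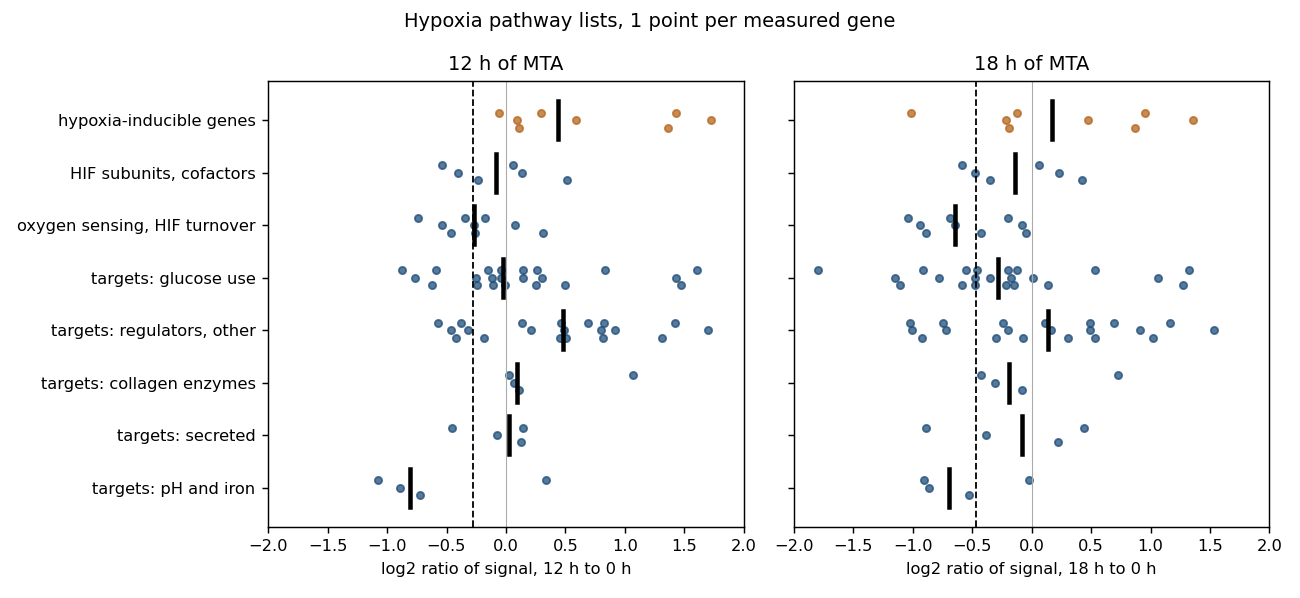
Log2 ratio of signal to 0 h at 12 and 18 h of MTA for the measured genes of 8 hypoxia pathway groups, with 1 point per gene, a thick bar at the group's median and dashes marking the all-gene median (−0.28 and −0.47). The hypoxia-inducible genes (brown) have medians of 0.44 and 0.17, and the groups of glucose use and of regulators reach to both sides of 0.

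By the rule for likeness, the distance between log2 ratios at 6, 12 and 18 h over the 4 arrays, the genes nearest to the members' median course were COPG2, EEF1A2 and OPTN, at 0.026, 0.033 and 0.036. BNIP3L, the nearest of the members themselves, lay at 0.38 and PFKFB4, the farthest, at 2.09. The median course therefore describes few of the 8 genes closely.

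**Figure D5:**
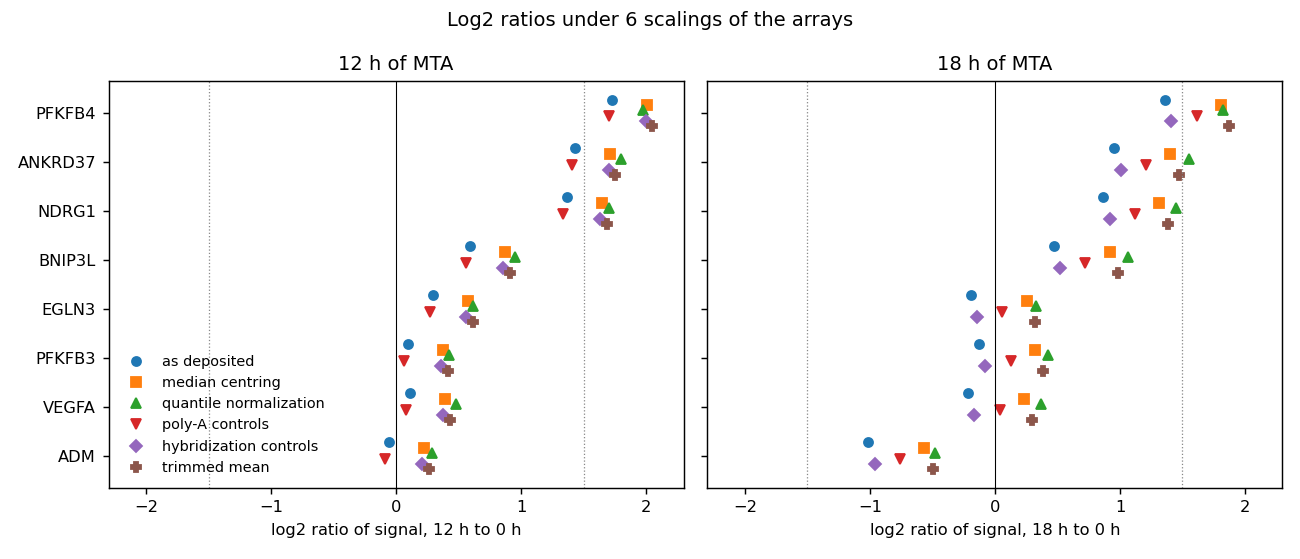
Log2 ratio of signal to 0 h at 12 and 18 h for the 8 measured hypoxia-inducible genes under 6 scalings of the arrays (symbols), with dotted lines at the threshold of 1.5. PFKFB4, ANKRD37, NDRG1 and BNIP3L stay right of 0 under all 6, ADM stays left of 0 at 18 h, and EGLN3, PFKFB3 and VEGFA cross 0 at 18 h.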

How the data were processed

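Gene expression in RCM-1 cells was measured on GeneChip Human Genome U133 Plus 2.0 arrays, 1 per duration of MTA. The deposited values are linear signal intensities that the authors computed by MAS5 in Affymetrix Expression Console. Neither its version nor the scaling target is known here.

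Control probe sets (62) were left out, and the probe sets with the highest mean log2 signal were kept, in the number the study called detected. A gene was represented by its brightest kept probe set with 1 symbol. Symbols came from the GEO platform annotation and were updated through RefSeq (GRCh38.p14). Log2 ratios to 0 h used the deposited scaling and no pseudocount, with the paper's threshold of 1.5. The number of arrays limits the precision, and no test was made. Members and lists were chosen with earlier results of these data known. The genes named were all members, and up to 4 genes of each list farthest from the median of all genes at 18 h and any beyond 1.5, GAPDH, ACTB and the 3 genes most like the members. Others named in the text, such as SLC2A1, were chosen after their values had been seen. ACTB had −0.55 at 18 h.

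Alternatives were no filter, the 10000 brightest probe sets, median centring, quantile normalization, poly-A, hybridization control or trimmed-mean (2% at each end) scaling, a pseudocount of 2.91, the mean over probe sets, and thresholds of 1 and 2. The highest signal by hour and counts beyond 1 were added after the values had been seen. Calculations were tested on simulated data. Python 3.11.15, NumPy 2.4.6, pandas 2.3.3 and matplotlib 3.10.9 were used.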

Additional observations from a re-analysis of the deposited data

How the results depend on the processing

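No paired analysis was possible because each time has 1 array. The number of members beyond 1.5 at 18 h, 0 with the deposited scaling, was 1 after median centring, relative to the poly-A controls and after division by the trimmed mean, 2 after quantile normalization, and 2 at a threshold of 1. The members' median at 18 h, 0.17, was 0.74 after quantile normalization and 0.69 after division by the trimmed mean. That of the 54 other targets, −0.20, was 0.29 and 0.31 in the same settings. It was also above 0 after median centring, at 0.25, and relative to the poly-A controls, at 0.05. Relative to the median of all genes, the members' median at 18 h lay between 0.63 and 0.75 above it in all 10 settings, and that of the other targets between 0.20 and 0.36. The value of 0.75 came with no filter, where BNIP3 was counted as a member on its dim readings. Of the ratios of single members, 201 moved by less than the spread between probe sets and 15 by more, all 15 at 18 h. The 201 include comparisons that could not move. A change of filter leaves these ratios as they were, as does the mean over probe sets for a gene with 1 kept probe set. Members with their highest signal on the 12 h array numbered 5 to 8, and the other targets 10 to 32. The share of all genes ran from 3.89% to 26.9%. The highest of each, 8, 32 and 26.9%, came with scaling to the hybridization controls. Dim readings limit BNIP3, which could not be measured.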
